A study of Mus musculus with 9 samples.

Results

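A set of 10 genes that mark the endothelial cells of the liver sinusoids was followed in whole mouse liver, and its members were taken by gene symbol from a table of 54532 genes. The members were Stab1, Stab2, Mrc1, Lyve1, Clec4g, Kdr, Eng, Pecam1, Oit3 and Dnase1l3. All 10 were read in all 9 libraries, and all 10 were among the 9699 genes that were tested. The livers came from male C57BL/6 mice, 5 to 7 weeks old, in 3 groups of 3 libraries. The NC group was the normal control. The APAP group received 500 mg/kg acetaminophen (APAP), a painkiller that is toxic to hepatocytes in overdose, and was sampled at 6 h. Mice were fasted overnight before APAP. The AMSC group received the same dose and, by tail vein directly after it, 200000 adipose-derived mesenchymal stem cells (AMSCs), grown from inguinal fat of C57BL/6 mice, and was also sampled at 6 h. The comparisons asked how the livers of overdosed mice differed from control livers, and how cell treatment changed that.

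Liver sinusoidal endothelial cells line the capillaries between the plates of hepatocytes. They are perforated by open pores, lack a continuous basement membrane, and take up waste macromolecules from portal blood through scavenger receptors. In acetaminophen overdose they are known as an early non-parenchymal target, and their pores can enlarge before hepatocytes die. The members cover these roles: Stab1, Stab2, Mrc1 and Lyve1 are endocytic or hyaluronan receptors, Clec4g is a C-type lectin, Kdr and Eng are receptors or co-receptors for growth factors, Pecam1 is a junction protein, and Oit3 and Dnase1l3 are secreted. Several are not exclusive to these cells. Kupffer cells also make Mrc1, Stab1 is made by some macrophages, Lyve1 marks lymphatic vessels, and Pecam1, Kdr and Eng are used by endothelium of many vessels.

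Promoter sequence (250 bases before to 50 after the annotated start) was found in RefSeq on GRCm38.p6 for 6 of the 10 members, which were Clec4g, Eng, Kdr, Mrc1, Stab1 and Stab2. The sequences of Mrc1 and Clec4g are shown because these members differed most between the AMSC and APAP groups among the 6, and those of Stab1 and Stab2 because they differed least. Each runs 5′ to 3′ on the gene's own strand, and capitals mark AGGAAG or its reverse complement CTTCCT, the core recognised by ETS family transcription factors, several of which act in endothelial cells.
Mrc1 promoter, chr2:14229164-14229463, + strand: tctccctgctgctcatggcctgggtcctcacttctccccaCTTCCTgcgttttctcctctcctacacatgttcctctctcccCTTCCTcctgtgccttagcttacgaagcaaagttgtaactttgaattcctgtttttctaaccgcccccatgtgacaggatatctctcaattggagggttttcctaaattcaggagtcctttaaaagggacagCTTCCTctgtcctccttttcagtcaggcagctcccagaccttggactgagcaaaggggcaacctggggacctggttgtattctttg
Clec4g promoter, chr8:3720602-3720901, - strand: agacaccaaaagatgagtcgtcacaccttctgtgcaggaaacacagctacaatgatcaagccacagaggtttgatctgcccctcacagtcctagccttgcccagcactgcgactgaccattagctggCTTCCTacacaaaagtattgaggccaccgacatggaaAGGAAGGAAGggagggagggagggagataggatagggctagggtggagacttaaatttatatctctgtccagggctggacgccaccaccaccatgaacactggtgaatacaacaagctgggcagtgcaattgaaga
Stab1 promoter, chr14:31168592-31168891, - strand: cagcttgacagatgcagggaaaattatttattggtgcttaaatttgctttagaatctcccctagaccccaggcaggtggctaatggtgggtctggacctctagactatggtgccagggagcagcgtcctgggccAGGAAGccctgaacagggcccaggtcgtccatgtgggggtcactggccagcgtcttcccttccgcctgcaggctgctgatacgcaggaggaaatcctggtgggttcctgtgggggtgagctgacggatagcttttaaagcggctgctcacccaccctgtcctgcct
Stab2 promoter, chr10:87007893-87008192, - strand: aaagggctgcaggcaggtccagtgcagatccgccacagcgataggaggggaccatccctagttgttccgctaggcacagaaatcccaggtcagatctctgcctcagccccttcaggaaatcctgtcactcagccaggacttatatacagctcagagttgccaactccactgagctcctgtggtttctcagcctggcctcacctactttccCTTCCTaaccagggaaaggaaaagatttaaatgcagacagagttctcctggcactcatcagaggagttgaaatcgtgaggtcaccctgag
AGGAAG on either strand was in 5 of the 6 member promoters (all but Kdr) and in 35.4% of 32851 promoters of the same length. The shifted core CAGGAA, which can overlap AGGAAG, was also in 5 of 6, against 30.6% of all promoters. The promoters of Mrc1 and Clec4g held 3 matches to AGGAAG each, that of Eng held 2, and those of Stab1 and Stab2 held 1 each. Of the other 6 motifs searched on both strands, TATAAA was in the Clec4g window and in 13.6% of all promoters. The GATA core AGATAA (11.2% of all promoters), its shifted form GATAAG (7.44%), the FOX core TGTTTAC (3.65%), the SOX core AACAAT (10.7%) and the AP-1 site TGAGTCA (5.2%) had no match in the 6 windows. Such matches describe letters in these windows and are no evidence of binding.

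Each library held between 13418921 and 16210930 reads on genes, and a member rested on 75 to 1267 reads per library, which gives a counting error of 2.81% to 11.5% of the value. Levels are given as FPKM, which are fragments scaled by gene length and library depth. Groups were compared with limma on log2(FPKM + 1), and a gene passed at a p of at most 0.05 after adjustment over all genes tested. The replicates of the NC and APAP groups differed by far more than the counting error. NC replicate 3 had the highest value of its group for all 10 members (it was highest for 38.1% of all genes tested), and APAP replicate 1 was highest for all 10 as well (36.3% of all genes). APAP replicate 2 was lowest for all 10 (27.5% of all genes) and NC replicate 1 for 9. Both NC replicate 3 and APAP replicate 1 were highest in their groups for 957 genes, or 9.87% of those tested. These libraries were singled out after the values were seen, and NC replicate 3 is also the library whose title carries another date than the other 8. In the AMSC group the highest value fell to replicate 2 for 4 members, to replicate 3 for 2 and to replicate 4 for 4. The study's methods call the libraries of a group biological replicates, and the deposited labels do not tie them to single mice. The p-values set the difference between group means against the spread between these libraries.

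**Figure D1:**
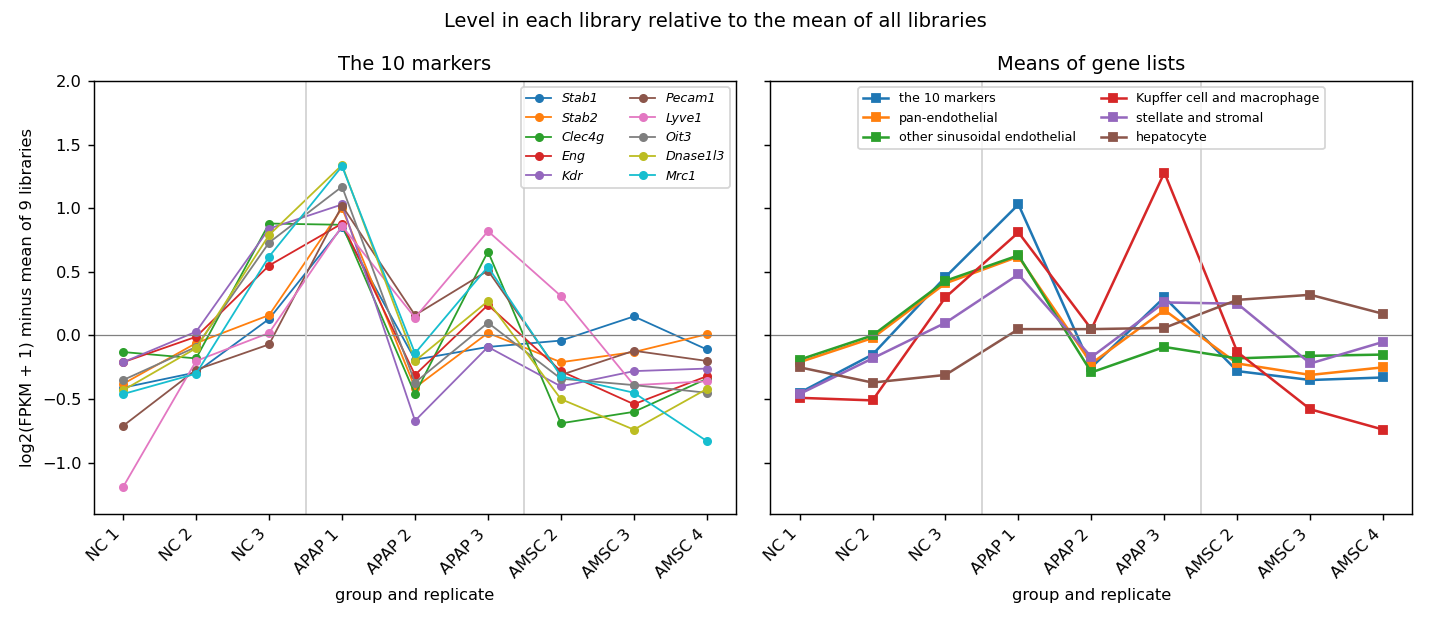
Left, each of the 10 members in each library, as log2(FPKM + 1) minus its mean over the 9 libraries. Right, the mean of the same quantity over the members and over 5 lists of marker genes. The members average -0.45, -0.15 and 0.46 in NC replicates 1 to 3, and 1.03, -0.25 and 0.30 in APAP replicates 1 to 3. In the AMSC libraries they average -0.35 to -0.28.

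Centred on its mean over the 9 libraries, log2(FPKM + 1) averaged over the members was -0.45, -0.15 and 0.46 in NC replicates 1 to 3. It was 1.03, -0.25 and 0.30 in APAP replicates 1 to 3. It was -0.28, -0.35 and -0.33 in AMSC replicates 2, 3 and 4. The NC and APAP groups overlapped on this scale, and the AMSC libraries lay below all 3 APAP libraries. In bulk tissue, fewer sinusoidal endothelial cells and less RNA of these genes per cell cannot be told apart.

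The marker lists of other cell types were centred in the same way and also summed, and not all of them followed these libraries. Genes used by endothelium of many vessels (26 listed, 18 tested) had a centred mean of 0.41 in NC replicate 3 and 0.62 in APAP replicate 1, and of -0.31 to -0.22 in the AMSC group. Kupffer cell and macrophage genes (20 listed, 16 tested) averaged 0.30 in NC replicate 3 and 0.81 in APAP replicate 1, but were highest in APAP replicate 3 at 1.28. Their summed level was 158 to 310 FPKM in NC, 238 to 605 in APAP and 140 to 224 in AMSC. Stellate and stromal genes (18 listed, 16 tested) summed to 86.2 to 147 FPKM in NC, 130 to 247 in APAP and 113 to 191 in AMSC. Markers of erythrocytes (8 listed, 5 tested) summed to 135 to 254 FPKM in NC, 306 to 1406 in APAP and 183 to 312 in AMSC. The 17 hepatocyte genes summed to 62193 to 67574, 83778 to 96127 and 83805 to 85971 FPKM in the same order. None of the genes on these lists was at 0 in every library. The part of cell content in the members' values was not tested.

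**Figure D2:**
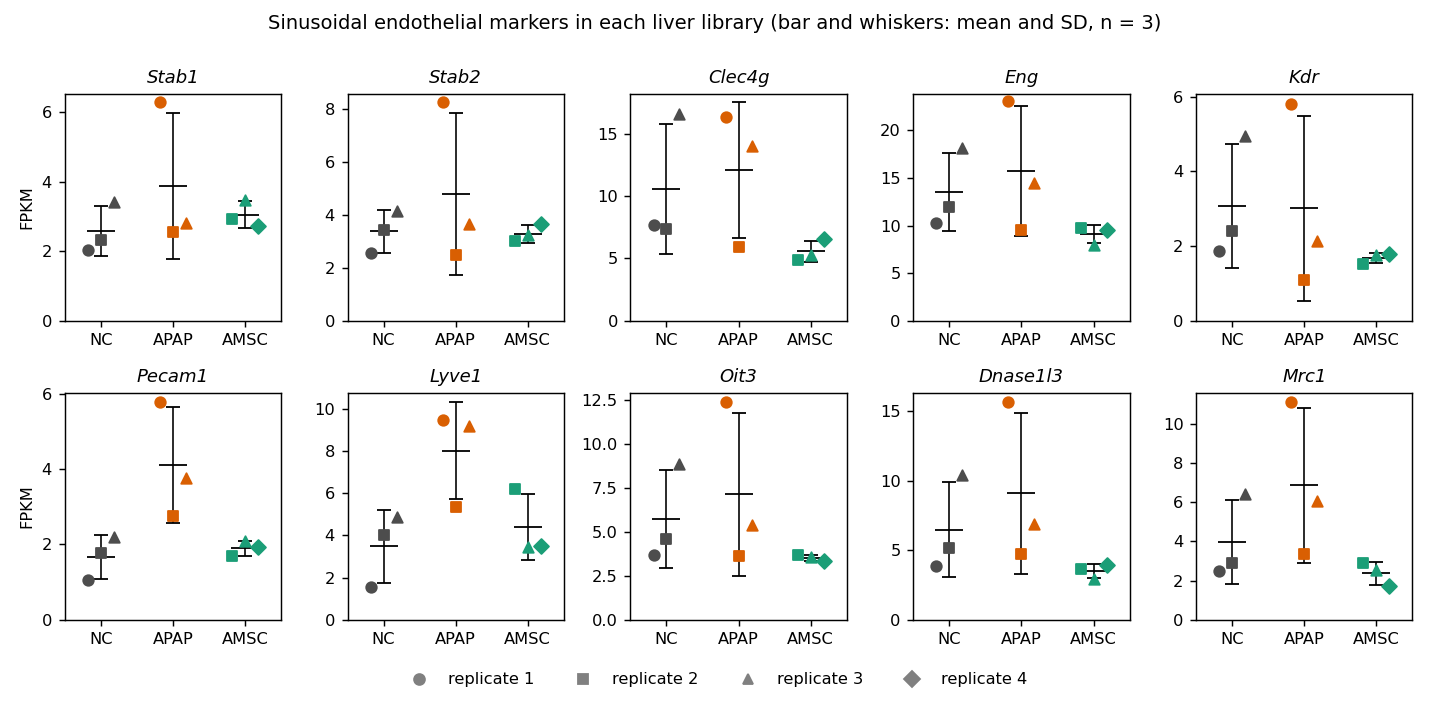
FPKM of each member in each library (points, shape by replicate number) with the mean and SD of the 3 libraries of each group. Pecam1 and Lyve1 lie higher in all APAP libraries than in all NC libraries, and the AMSC points of most members lie close together.

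Among the scavenger receptors, Stab2 (chr10:86841198-87008025 on GRCm38), the main clearance receptor for hyaluronan in the sinusoid, was at 2.55, 3.41 and 4.15 FPKM in NC replicates 1 to 3, at 8.24, 2.47 and 3.66 in APAP replicates 1 to 3, and at 2.99, 3.22 and 3.64 in AMSC replicates 2 to 4. Its groups overlapped in every comparison, and a single APAP library stood above the rest. Stab1 (chr14:31139013-31168641 on GRCm38), its paralogue, which takes up acetylated low-density lipoprotein and the matrix protein SPARC, was at 2.05, 2.31 and 3.41 FPKM in NC, at 6.31, 2.55 and 2.80 in APAP, and at 2.94, 3.48 and 2.74 in AMSC. Neither gene passed the test in any comparison, with fitted log2 fold changes of 0.30 (95% interval -0.49 to 1.08) and 0.38 (-0.28 to 1.04) for APAP against NC, and of -0.31 (-1.06 to 0.43) and -0.19 (-0.81 to 0.43) for AMSC against APAP, in the order Stab2 and Stab1.

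Mrc1 (chr2:14229392-14332057 on GRCm38), the mannose receptor, which clears collagen fragments and glycoproteins, was at 2.51, 2.91 and 6.41 FPKM in NC, at 11.1, 3.38 and 6.04 in APAP, and at 2.88, 2.54 and 1.71 in AMSC. All 3 AMSC libraries lay below all 3 APAP libraries. The mean was 6.85 ± 3.94 FPKM (SD, n = 3) in APAP and 2.37 ± 0.598 (SD, n = 3) in AMSC. The log2 fold change was -1.11 (SE 0.34), the lowest of the 10 members, with a limma adjusted p of 0.123. Without single libraries the log2 fold change ran from -1.47 without APAP replicate 2, where alone the limma adjusted p (0.037) passed, to -0.73 without APAP replicate 1 (limma adjusted p 0.152).

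Lyve1 (chr7:110850607-110863239 on GRCm38), a hyaluronan receptor, was at 1.54, 4.04 and 4.86 FPKM in NC, at 9.48, 5.36 and 9.20 in APAP, and at 6.19, 3.43 and 3.51 in AMSC. Every APAP library was above every NC library, while the AMSC group overlapped both. The mean was 3.48 ± 1.73 FPKM (SD, n = 3) in NC and 8.01 ± 2.3 (SD, n = 3) in APAP. The fitted log2 fold change of APAP against NC was 1.06 (SE 0.33), with a limma adjusted p of 0.051, just outside the threshold. With the replicate number as a block the limma adjusted p was 0.0638. Leaving out NC replicate 3 or APAP replicate 2 lowered it to 0.0411 and 0.0482 in limma. Leaving out NC replicate 1, NC replicate 2, APAP replicate 1 or APAP replicate 3 raised it to 0.105, 0.0869, 0.107 and 0.129 in limma, and the log2 fold change was 0.69 without NC replicate 1. With all genes above 0 tested the limma adjusted p was 0.2. Lyve1 passed with all 9 libraries in 1 fit (limma adjusted p 0.0344) and with voom on recovered reads (0.0421).

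Clec4g (chr8:3707064-3720651 on GRCm38), also known as LSECtin, a lectin that binds glycoproteins and T cells, was at 7.72, 7.40 and 16.6 FPKM in NC, at 16.4, 5.93 and 14 in APAP, and at 4.91, 5.28 and 6.54 in AMSC. The AMSC libraries all lay below the NC libraries, and the APAP libraries overlapped both groups. For AMSC against NC the log2 fold change was -0.73 (95% interval -1.36 to -0.11), with a limma adjusted p of 0.0832. For AMSC against APAP it was -0.90 (-1.65 to -0.15), with a limma adjusted p of 0.17 that became 0.0142 without APAP replicate 2. The value was -0.64 without APAP replicate 1, and that against NC was -0.39 without NC replicate 3.

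Of the growth factor receptors, Kdr (VEGF receptor 2, chr5:75932827-75978458 on GRCm38), which carries most VEGF signalling in endothelium, was at 1.87, 2.40 and 4.95 FPKM in NC, at 5.81, 1.09 and 2.13 in APAP, and at 1.53, 1.75 and 1.78 in AMSC. The highest APAP library was 5.33 times the lowest, the widest ratio of any member in any group. Kdr was the only member with a negative fitted difference of APAP against NC, at -0.13 (95% interval -1.15 to 0.89), which became 0.18 without NC replicate 3 and 0.25 without APAP replicate 2. The AMSC libraries all lay below the NC libraries, with a log2 fold change of -0.53 (-1.10 to 0.04) and a limma adjusted p of 0.154. Without NC replicate 3 this value was -0.22.

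Eng (endoglin, chr2:32646595-32682669 on GRCm38), a co-receptor for BMP9 and TGF-beta ligands, was the most abundant member per length, at 10.3, 12 and 18.2 FPKM in NC, at 23.1, 9.55 and 14.5 in APAP, and at 9.78, 7.98 and 9.52 in AMSC. The AMSC libraries again all lay below the NC libraries. The log2 fold change of AMSC against NC was -0.49 (95% interval -0.94 to -0.05), with a limma adjusted p of 0.0974, and that of AMSC against APAP was -0.65 (-1.29 to -0.01), with a limma adjusted p of 0.231. These values were -0.27 without NC replicate 3 and -0.35 without APAP replicate 1.

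Pecam1 (CD31, chr11:106654217-106750628 on GRCm38), a junction protein through which leukocytes pass, was at 1.05, 1.78 and 2.19 FPKM in NC, at 5.78, 2.75 and 3.76 in APAP, and at 1.70, 2.09 and 1.92 in AMSC. Every APAP library lay above every NC and every AMSC library. The mean rose from 1.67 ± 0.579 FPKM (SD, n = 3) in NC to 4.1 ± 1.54 (SD, n = 3) in APAP and was 1.9 ± 0.195 (SD, n = 3) in AMSC. The log2 fold change of APAP against NC was 0.91 (SE 0.25), with a limma adjusted p of 0.0313. This was the only member that passed in any comparison, and the call was fragile. With the replicate number as a block the limma adjusted p was 0.0571. Leaving out NC replicate 1, NC replicate 2, APAP replicate 1 or APAP replicate 3 raised the limma adjusted p to 0.102, 0.08, 0.056 and 0.0674. Over all alternatives it ran from 0.0125 to 0.139. For AMSC against APAP the log2 fold change was -0.77 (SE 0.21), with a limma adjusted p of 0.0953, and 0.0442 without APAP replicate 2.

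The secreted members were Oit3 (chr10:59422958-59441778 on GRCm38), a zona pellucida domain protein of uncertain function, and Dnase1l3 (chr14:7964533-7994573 on GRCm38), a nuclease that digests chromatin in circulating microparticles. Oit3 was at 3.68, 4.60 and 8.88 FPKM in NC, at 12.4, 3.62 and 5.39 in APAP, and at 3.70, 3.56 and 3.36 in AMSC. The AMSC libraries differed by a factor of 1.1 from lowest to highest, the narrowest ratio of any member, and the groups overlapped in every comparison. Dnase1l3 was at 3.90, 5.16 and 10.4 FPKM in NC, at 15.7, 4.72 and 6.92 in APAP, and at 3.64, 2.94 and 3.93 in AMSC. Its AMSC libraries lay below all APAP libraries. The log2 fold change of Dnase1l3 for AMSC against APAP was -1.02 (SE 0.35), with a limma adjusted p of 0.155, and that of Oit3 was -0.69 (95% interval -1.49 to 0.10), with a limma adjusted p of 0.304. Without APAP replicate 1 these values were -0.59 and -0.26, and without APAP replicate 2 they were -1.36 and -1.03, neither of which passed.

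Per length, Eng, Clec4g, Dnase1l3 and Oit3 had the highest mean FPKM in NC in this order, and Pecam1 had the lowest. In APAP the order began with Eng, Clec4g, Dnase1l3 and Lyve1 and ended with Kdr, and in AMSC it began with Eng, Clec4g, Lyve1 and Oit3 and ended with Kdr. Neighbours in each order overlapped over their libraries in all cases but 1: in AMSC, every Eng value was above every Clec4g value. Exons of Stab1, Stab2, Clec4g and Eng overlap those of Nt5dc2, Gm16268, Gm16553 and Fpgs on the other strand. Whether the authors' counting used strand was not given in the sources used here, so the levels of these 4 members are uncertain to that extent. The same holds for Fcgr2b, Csf1r, Rasip1, Gpr182, Vcam1, Cd9, Prox1 and Alas2, which are named among the other genes. Exons of Rasip1 also overlap those of Izumo1 on the same strand.

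**Figure D3:**
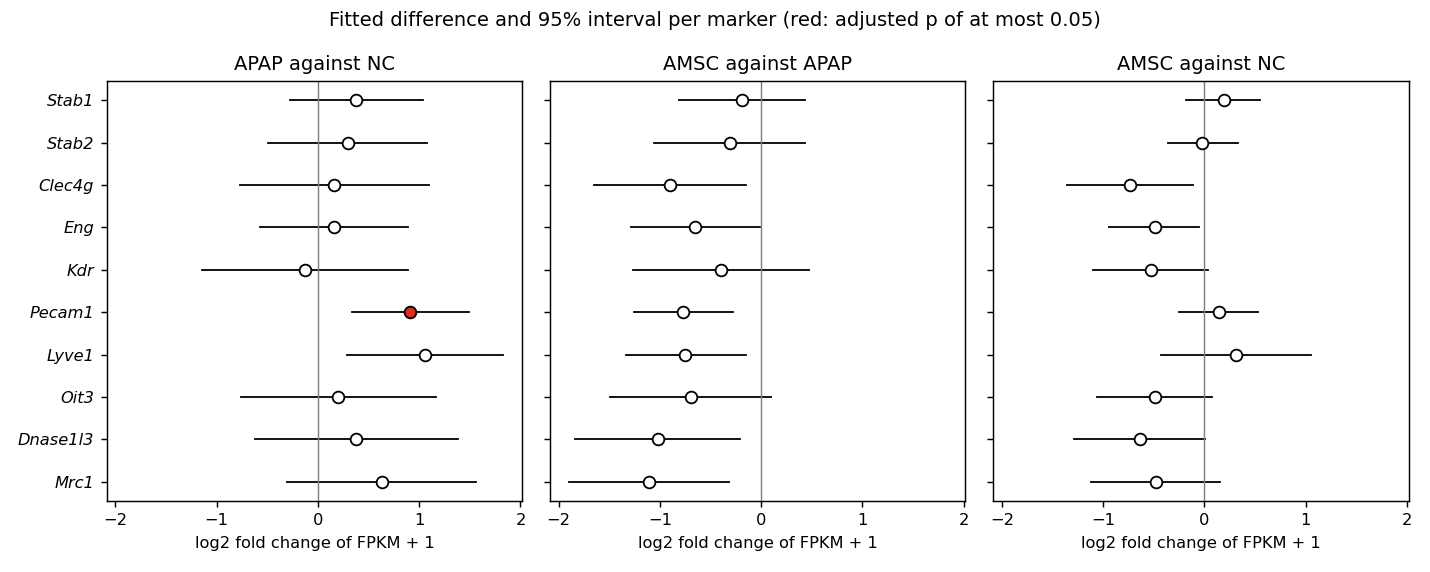
Fitted log2 fold change of FPKM + 1 per member with its 95% interval in the 3 comparisons, each from a limma fit of 3 against 3 libraries. The filled red point is Pecam1 for APAP against NC, the only member past an adjusted p of 0.05, and all 10 points lie below 0 for AMSC against APAP.

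In APAP against NC, 9 of 10 members had a higher fitted value in APAP (49.7% of all genes did), with a median log2 fold change of 0.34 against -0.0043 over all genes. Of the 10, 1 passed an adjusted p of 0.05 in limma, against 25.9% of all genes tested, and none was a DEG (a log2 fold change of at least 1 as well), against 7.9%. Pecam1 and Lyve1 did not overlap between the groups and were higher in APAP, which 20.9% of all genes were. The count of passing members was thus no larger than the background. Without APAP replicate 1, 6 of the 10 members had a lower fitted value in APAP, and the median became -0.07.

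In AMSC against APAP, all 10 members had a lower fitted value in AMSC (48% of all genes did). The median log2 fold change was -0.72, against 0.01 over all genes. None of the 10 passed an adjusted p of 0.05 in limma, against 3.78% of all genes, and 6 had an unadjusted p under 0.05, against 20.9% in either direction and 10.3% for lower genes. With voom in limma none passed either. Mrc1, Dnase1l3 and Pecam1 lay lower in every AMSC library than in any APAP library, as did 12.4% of all genes. Without APAP replicate 1, 7 of 10 were lower and the median was -0.45, with values of 0.14 for Stab1, 0.09 for Stab2 and 0.07 for Kdr. Without APAP replicate 2, Clec4g, Mrc1 and Pecam1 passed.

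In AMSC against NC, 7 of 10 members had a lower fitted value in AMSC (48.3% of all genes did), with a median of -0.49 against 0.02 over all genes. None passed an adjusted p of 0.05 in limma, against 26% of all genes, and 2 had an unadjusted p under 0.05, against 38%. None passed with voom in limma. Clec4g, Kdr and Eng lay lower in every AMSC library than in any NC library, as did 20.3% of all genes. Pecam1, Stab1 and Lyve1 had fitted values of 0.14, 0.19 and 0.31. The NC group is shared by both comparisons with control livers, and the APAP group by both comparisons with overdosed livers.

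**Figure D4:**
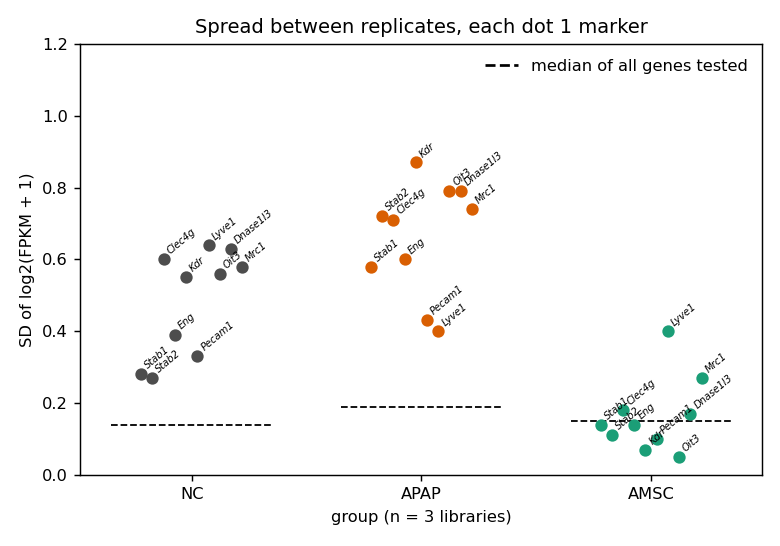
SD of log2(FPKM + 1) over the 3 libraries of each group, with 1 point per member and a dashed line at the median SD of all 9699 genes tested. The members lie above that line in NC and APAP and around it in AMSC.

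The members varied more between libraries than most genes in NC and APAP, but not in AMSC. The SD of log2(FPKM + 1) over the libraries of a group had a median over the members of 0.56 in NC, 0.72 in APAP and 0.14 in AMSC, where the medians over all genes tested were 0.14, 0.19 and 0.15. An SD of at least the members' median was seen in 2.17% of all genes in NC, 2.52% in APAP and 54.8% in AMSC. All 10 members had their smallest SD in AMSC, 9 had their largest in APAP, and Lyve1 had its largest in NC. Lyve1 and Mrc1 were the most variable members in AMSC, at 0.40 and 0.27. The difference in spread between groups was not tested, since each SD rests on 3 libraries.

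The members did not keep fixed proportions to each other. Taken relative to the mean of the other 9 members in the same library, on the centred log2 scale, Stab1 lay between 0.24 and 0.55 in AMSC, above its APAP range of -0.43 to 0.06 and its NC range of -0.38 to 0.05. Stab2 was likewise higher relative to the others in AMSC (0.08 to 0.37) than in APAP (-0.31 to -0.03). Dnase1l3 lay lower in AMSC (-0.44 to -0.10) than in APAP (-0.03 to 0.34) or NC (0.02 to 0.36). Mrc1 lay lower in AMSC (-0.56 to -0.04) than in APAP (0.12 to 0.33). Pecam1 was higher relative to the others in both APAP (-0.02 to 0.45) and AMSC (-0.04 to 0.26) than in NC (-0.59 to -0.14). Eng and Kdr showed the opposite, with NC ranges of 0.10 to 0.27 and 0.20 to 0.42 above those of both other groups. These ranges describe 3 libraries a group and were not tested.

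The genes whose profile over the 9 libraries lay nearest to each member were found by the root mean square difference of centred log2 values. For Stab2 the nearest gene was Plxnc1 at 0.0711, and for Stab1 it was Ets1 at 0.119, where the median over all genes was 0.475 and 0.434. A nearest gene lies below that median in any case, so these distances are a description and were not tested. Fcgr2b, an inhibitory Fc receptor of sinusoidal endothelium, was nearest to Clec4g (0.222), Oit3 (0.138), Dnase1l3 (0.122) and Mrc1 (0.16). Fcgr2b was at 3.30, 3.91 and 7.10 FPKM in NC, at 11.6, 3.39 and 5.92 in APAP, and at 2.74, 2.66 and 2.61 in AMSC, and so shared the high NC replicate 3 and APAP replicate 1. Cd36, a fatty acid and scavenger receptor, was nearest to Kdr (0.149), and Npr1, a natriuretic peptide receptor, to Eng (0.145). Podxl, a sialomucin of the endothelial surface, was nearest to Pecam1 (0.117), with the cadherin Cdh5 second (0.139). For Mrc1 the macrophage genes Mpeg1 (0.204) and Csf1r (0.216) came next. Lyve1 was nearest to the MHC class II gene H2-Ab1 at 0.194, with Igfbp3 and Col14a1 next. The second gene for Clec4g was Wnt2 (0.226), a Wnt ligand of pericentral endothelium.

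Other endothelial genes did not all follow the members. Of the 18 pan-endothelial genes tested, 2 rose and 2 fell in APAP against NC in limma, and none passed in AMSC against APAP. In AMSC against NC 4 fell. The median log2 fold changes were 0.36, -0.59 and -0.19. Of all genes tested, 25.9%, 3.78% and 26% passed in these comparisons, the background for this and all later list counts. The counts of this list were no larger than that background. S1pr1, a sphingosine 1-phosphate receptor that keeps junctions closed, was at 23.3, 20.4 and 17.2 FPKM in NC, at 11.8, 6.81 and 11.4 in APAP, and at 5.77, 6.29 and 4.19 in AMSC. The 3 groups did not overlap, and NC replicate 3 was its lowest control library, unlike for the members. S1pr1 fell by 1.74 on the log2 scale in AMSC against NC (SE 0.16, limma adjusted p 0.000261). It fell by 0.98 in APAP against NC (limma adjusted p 0.0143), which was lost without NC replicate 1 (0.0565) or NC replicate 2 (0.053).

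Cldn5, a tight junction protein of continuous endothelium, was at 4.83, 6.17 and 8.78 FPKM in NC, at 4.16, 2.22 and 5.15 in APAP, and at 1.65, 0.978 and 1.74 in AMSC. It fell by 1.61 on the log2 scale in AMSC against NC (SE 0.21, limma adjusted p 0.00124), and this call held without any 1 library. The other calls on this list were less stable. Esam (0.92) and Rasip1 (0.63) rose and Sox18 (-1.25) fell in APAP against NC, and Sox18 (-0.87) and Clec14a (-0.72) fell in AMSC against NC. Esam was lost without NC replicate 2 (limma adjusted p 0.0577), APAP replicate 2 (0.053) or APAP replicate 3 (0.0504). Rasip1 was lost without NC replicate 1 (limma adjusted p 0.0879), NC replicate 2 (0.0797), APAP replicate 2 (0.0762) or APAP replicate 3 (0.0784). Its NC values of 0.562, 1.05 and 1.36 FPKM averaged just under 1, so the filter on the mean over all libraries favoured its rise. Sox18 was lost without NC replicate 2 in either comparison (limma adjusted p 0.0517 and 0.0518), without APAP replicate 2 (0.0526), and without AMSC replicate 2 (0.0664) or AMSC replicate 4 (0.0676). Clec14a was lost without any of NC replicates 2 and 3 and AMSC replicates 2 to 4, with limma adjusted p of 0.0828, 0.0516, 0.0882, 0.065 and 0.116. With all genes above 0 tested, S1pr1 in APAP against NC and these 5 calls had limma adjusted p between 0.0799 and 0.18.

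Of 20 further sinusoidal endothelial genes tested, 1 fell in APAP against NC, none passed in AMSC against APAP and 2 fell in AMSC against NC. The shares of all genes that passed were 25.9%, 3.78% and 26%, so these counts were no larger than the background. The medians of the list were 0.04, -0.30 and -0.23 on the log2 scale. The genes that fell were Gata4 (-0.79), a transcription factor of sinusoidal identity, and then Gpr182 (-0.74) and Lifr (-0.61). Gata4 was lost without NC replicate 2 (limma adjusted p 0.115), NC replicate 3 (0.0789), APAP replicate 2 (0.0744) or APAP replicate 3 (0.0843). Gpr182 was lost without NC replicate 2 (limma adjusted p 0.0626), AMSC replicate 2 (0.105) or AMSC replicate 4 (0.097). Lifr was lost without AMSC replicate 2 (limma adjusted p 0.0624) or AMSC replicate 3 (0.0531). With all genes above 0 tested the limma adjusted p was 0.136, 0.168 and 0.0956 for Gata4, Gpr182 and Lifr.

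Genes of endothelial activation and coagulation were read beside the members. Of 20 listed, 8 were tested. In APAP against NC 5 rose, in AMSC against APAP 1 fell, and in AMSC against NC 6 rose and 1 fell. The shares of all genes that passed were 25.9%, 3.78% and 26%. The filter on the mean over all libraries favoured genes that are low in NC and high in the other groups. Thbd (thrombomodulin), which turns thrombin to an anticoagulant role, was at 0.209, 0.621 and 0.609 FPKM in NC, at 10.6, 7.20 and 7.51 in APAP, and at 2.59, 1.94 and 2.86 in AMSC. Each group stood apart from the others, and Thbd reached the mean of 1 FPKM only through APAP and AMSC. Thbd rose by 2.67 on the log2 scale in APAP against NC (limma adjusted p 0.000132) and fell by 1.44 in AMSC against APAP (limma adjusted p 0.00812, and 0.0922 with all genes above 0 tested). Vcam1, a leukocyte adhesion molecule, rose by 1.59 (limma adjusted p 0.00134) and Klf2, a flow-responsive factor, by 1.07 (limma adjusted p 0.00209) in APAP against NC. Vcam1 was at 0.601, 0.671 and 1.21 FPKM in NC, so it too reached the mean of 1 FPKM only through APAP and AMSC. Hepatocytes and macrophages also express several of these genes.

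The ligand systems of Kdr and Eng were read beside their receptors. Of 8 genes of the VEGF and angiopoietin system tested, 1 rose in APAP against NC, none passed in AMSC against APAP and 2 rose in AMSC against NC. The 1 was Angptl4 and the 2 were Vegfa and Angptl4, so no VEGF ligand tested passed in APAP against NC. Vegfa, the main ligand of Kdr, was at 21.1, 25.2 and 19.2 FPKM in NC, at 21.2, 39.1 and 33.4 in APAP, and at 42.9, 49.4 and 41.9 in AMSC. It rose by 1.01 on the log2 scale in AMSC against NC (limma adjusted p 0.00117), where Kdr itself had a value of -0.53 and did not pass. Angptl4, a lipoprotein lipase inhibitor, rose by 3.41 in APAP and by 2.77 in AMSC against NC (limma adjusted p 0.000185 and 1.42e-05). Of 17 genes of the BMP9 and endoglin system, 6 rose in APAP against NC, 1 rose and 1 fell in AMSC against APAP, and 6 rose in AMSC against NC. Smad1, a mediator of BMP signals, rose by 0.89 in APAP and 1.02 in AMSC against NC (limma adjusted p 0.005 and 0.000852), and Tgfbr2, the type II TGF-beta receptor, rose from 3.33 ± 0.24 to 7.77 ± 1.9 FPKM (SD, n = 3) in APAP against NC (limma adjusted p 0.00461). Hes1, a Notch and BMP target, rose by 2.18 in APAP against NC (limma adjusted p 0.00187).

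Of 14 further scavenger and endocytic receptors, 4 rose in APAP against NC, 2 fell in AMSC against APAP, and 2 rose and 2 fell in AMSC against NC. The shares of all genes that passed were 25.9%, 3.78% and 26%. Cd14, the lipopolysaccharide co-receptor, rose from 1.37, 1.03 and 1.37 FPKM in NC to 54.3, 72.5 and 125 in APAP, and was at 12.5, 4.65 and 7.32 in AMSC. Its groups did not overlap. Cd14 fell by 3.22 on the log2 scale in AMSC against APAP (limma adjusted p 0.00812). With all genes above 0 tested, the limma adjusted p of Cd14 was 0.1 in this comparison. Cd14 is also made by macrophages and, in injury, by hepatocytes.

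Zone markers of the sinusoid were few at this depth. Of 5 genes of the central side, 1 rose in APAP against NC, 1 fell in AMSC against APAP and 3 rose in AMSC against NC. Thbd, already counted with the activation and coagulation genes, was the 1 gene in the first 2 comparisons and 1 of the 3. It had been tested only through its APAP and AMSC values. Gja4, a connexin, was also among the 3, at 2.1, 2.57 and 3 FPKM in NC and 9.19, 5.98 and 11.8 in AMSC (log2 fold change 1.46, limma adjusted p 0.00236). Of 6 genes of the portal side, 2 rose in APAP against NC, 1 fell in AMSC against APAP and 1 rose in AMSC against NC. Cd9, a tetraspanin, rose by 1.39 in APAP against NC (limma adjusted p 0.00252). The other was Podxl at 0.72 (limma adjusted p 0.0455), which was lost with the replicate number as a block (limma adjusted p 0.0681), without NC replicate 1 (0.145), NC replicate 2 (0.127), APAP replicate 1 (0.0829) or APAP replicate 3 (0.0759), with quantile normalization (0.0604) and with all genes above 0 tested (0.162). Podxl was at 0.481, 0.716 and 1.15 FPKM in NC and reached a mean of 1 FPKM only through APAP. Of 3 lymphatic genes, 1 fell in APAP against NC, which was Prox1 (-1.50, limma adjusted p 0.00302), a transcription factor that hepatocytes also make. Prox1 was the 1 gene of the 3 that rose in AMSC against APAP, by 1.27, a call that was lost without APAP replicate 2 (limma adjusted p 0.0629), APAP replicate 3 (0.1) or AMSC replicates 2, 3 and 4 (0.0754, 0.0918 and 0.0952), and with all genes above 0 tested (0.178).

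Of the 16 Kupffer cell and macrophage genes tested, 3 rose in APAP against NC, 1 fell in AMSC against APAP and none passed in AMSC against NC. All 16 had higher fitted values in APAP than in NC (median 0.93) and lower ones in AMSC than in APAP (median -1.21). Cd68, a lysosomal protein, was among both, at 2.1, 3.13 and 4.53 FPKM in NC, 9.19, 9.31 and 10.8 in APAP, and 3.71, 5.02 and 2.33 in AMSC. Its fall in AMSC against APAP was lost without APAP replicate 3 (limma adjusted p 0.0852), AMSC replicate 2 (0.0805) or AMSC replicate 4 (0.0567), and with all genes above 0 tested (0.143). Of 16 stellate and stromal genes, 2 rose and 1 fell in APAP against NC, 1 rose in AMSC against APAP, and 1 rose and 1 fell in AMSC against NC. Of 6 tested genes from a list for stromal cells of the injected kind, 1 rose in APAP against NC and none passed in the other comparisons. This list summed to 48.6 to 59.5 FPKM in NC and 64.3 to 81.6 in APAP, which received no cells. In AMSC it summed to 54.2 to 58.5 FPKM, so it does not measure injected cells in this tissue. Of 10 neutrophil genes listed, the 3 tested (S100a8, S100a9 and Retnlg) rose in APAP and in AMSC against NC. S100a9 changed by 2.95 and 1.49 (limma adjusted p 0.00435 and 0.00296). In NC the 3 were at most at 0.668 FPKM, so they reached the mean of 1 FPKM only through the other groups. The filter thus favoured such rises. The summed level of the neutrophil genes was 0.33 to 1.94 FPKM in NC, 7.69 to 35.3 in APAP and 4.65 to 6.17 in AMSC, and Camp of this list was at 0 in every library. Of 5 erythrocyte genes, 4 rose in APAP against NC and 1, Alas2, fell in each of the other comparisons. The 4 were the haemoglobin genes Hbb-bs, Hba-a1, Hba-a2 and Hbb-bt, with log2 fold changes of 2.51, 2.34, 2.29 and 2.17. None of the 4 passed in limma without NC replicate 1, without NC replicate 2, or with all genes above 0 tested, and 2 passed without APAP replicate 1 or APAP replicate 3. Alas2 in AMSC against APAP was lost without APAP replicate 3 or any 1 AMSC library (limma adjusted p 0.0785 to 0.114), and in AMSC against NC without NC replicate 1 (0.066). Of 17 hepatocyte genes, 8 rose and 1 fell in APAP against NC, 1 rose in AMSC against APAP and 7 rose in AMSC against NC. The number that rose in APAP against NC was 3 with quantile normalization, where Alb, Apoa1, Hpx, Serpina1a and Serpina1b were lost (limma adjusted p 0.113 to 1). It was 4 with all genes above 0 tested, and 5, 5 and 4 without NC replicate 1, NC replicate 2 and APAP replicate 2. The 1 rise in AMSC against APAP was that of Cyp2e1 (2.40, limma adjusted p 0.0474). It was lost with a pseudocount of 0.1 (limma adjusted p 0.0501), all genes above 0 tested (0.226), a mean of at least 5 FPKM (0.0501) or quantile normalization (0.0533). It was also lost without APAP replicate 3 or any 1 AMSC library (limma adjusted p 0.12 to 0.147).

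The counts of other lists in APAP against NC also turned on single libraries. The Kupffer cell and macrophage genes that rose (3) were 1 in number without NC replicate 1, NC replicate 2, APAP replicate 1 or APAP replicate 3, but 7 without NC replicate 3, 10 without APAP replicate 2 and 12 with the replicate number as a block. Those that fell in AMSC against APAP (1) were 13 without APAP replicate 2. The stellate and stromal genes that rose in APAP against NC (2) were 0 without NC replicate 1 or NC replicate 2 and 6 without NC replicate 3 or APAP replicate 2. The gene that rose from the list for stromal cells of the injected kind was lost without NC replicate 1 or NC replicate 2. The BMP9 and endoglin genes that rose (6) were 3 without NC replicate 2, and the scavenger and endocytic receptors that rose (4) were 2 without NC replicate 1, NC replicate 2 or APAP replicate 2. In AMSC against NC the BMP9 and endoglin genes that rose (6) were 3 without NC replicate 1, and the activation and coagulation genes that rose (6) were 3 without NC replicate 2. The 3 neutrophil genes passed in both comparisons with NC without any 1 library, but they had been tested only through their APAP and AMSC values.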

How the data were processed

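Whole-liver RNA of 9 libraries was sequenced. The authors deposited FPKM values per gene with gene lengths. Per the labels the builds were GRCm38 and mm10; aligner and counter were not given in the sources used here. FPKM times length gave whole reads (within 0.1) for 100% of values, and the depth scaling of the FPKM followed size factors, not library totals. log2(FPKM + 1) was tested for the 9699 genes whose mean reached 1 FPKM, in limma 3.58.1 (trend, R 4.3.3), 2 groups per fit, with Benjamini-Hochberg adjustment. Fold changes are on this scale, which understates those of low genes. DESeq2 was the authors' tool. Alternatives varied the pseudocount, filter, scaling, fit, voom on recovered reads, replicate block and left-out libraries.

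Replicate numbers come from the labels' descriptions; the title of NC replicate 3 carries another date and the number 1. Same-numbered NC and APAP libraries deviated together from their group means (r 0.213, 0.16 and 0.378 over genes), a hint from the data, so the blocked value is given where it changed a call, while AMSC numbers did not pair. The members and lists were chosen with earlier results of these data known. Named beside the members were up to 4 passing genes per list with the largest change, and the 3 genes nearest to each member. The scripts were tested on simulated data. Proteins were not analysed here.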

Additional observations from a re-analysis of the deposited data

How the results depend on the processing

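With 3 libraries a group, intervals of the members are wide, and those of Stab1, Stab2, Kdr and Oit3 include 0 in all 3 comparisons. The count of passing members in APAP against NC (1) was 0 with all genes above 0, 0 with a mean of at least 5 FPKM (5 members tested), 2 with all 9 libraries in 1 fit, 2 with voom, 0 with the replicate block, and 0 to 2 without single libraries. In AMSC against APAP (0) it was 0 to 3 without single libraries. In AMSC against NC (0) the replicate block gave 2, which were Clec4g (limma adjusted p 0.0354) and Dnase1l3 (0.0462), although same-numbered libraries of these groups did not deviate together (r -0.199 and -0.309). Of all genes, 2514 passed in APAP against NC, 1318 with a mean of at least 5 FPKM and 1353 to 2749 without single libraries. In AMSC against APAP 367 passed, 53 with all genes above 0, 178 with a mean of at least 5 FPKM, 624 with all 9 libraries in 1 fit and 100 to 366 without single libraries. In AMSC against NC 2521 passed, 1509 with a mean of at least 5 FPKM, 846 with the replicate block and 1678 to 2356 without single libraries. The cause was not tested, except that fewer genes or libraries enter the stricter filter and the left-out fits.

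Members that did not pass changed sign in log2 fold change under some settings, mostly without APAP replicate 1 or 1 NC library. Without single libraries, the fitted values in APAP against NC ran from -0.10 to 0.60 for Stab2, -0.09 to 0.57 for Clec4g (-0.02 without NC replicate 2), -0.15 to 0.45 for Eng (-0.002 without NC replicate 1), -0.60 to 0.25 for Kdr (0.18 without NC replicate 3), -0.23 to 0.54 for Oit3 (-0.02 without NC replicate 1) and -0.06 to 0.73 for Dnase1l3. In AMSC against APAP they ran from -0.38 to 0.14 for Stab1, -0.62 to 0.09 for Stab2 and -0.78 to 0.07 for Kdr, and with the replicate block these were 0.19, 0.03 and 0.04. In AMSC against NC they ran from -0.16 to 0.11 for Stab2 (0.03 without AMSC replicate 2), -0.04 to 0.28 for Pecam1 (-0.05 with the replicate block) and -0.05 to 0.55 for Lyve1. The medians over the members kept their sign in all settings run, except that in APAP against NC it was -0.07 without APAP replicate 1. Beside Pecam1, the block changed no call of a member in APAP against NC, and among the other genes named it ended that of Podxl.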
